A study of Mus musculus with 6 samples.

Results

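The genes described here are 37 interferon-stimulated and antigen-processing genes of the mouse, followed in astrocyte-line cells given pulsed radiofrequency (PRF) and in untreated cells. They were listed by role: 6 RNA sensors, 9 signal factors, 17 antiviral effectors and 5 genes of antigen processing. A probe belonged to the set if the transcript it was designed for carries one of these symbols in RefSeq. For 35 of the 37 genes such a probe was found, 48 probes in all, out of 22911 genes with a named probe on the array. Mx1 and Mx2, GTPases that block viral nucleocapsids, had no probe under this rule and are not analysed here.

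RNA was measured on 6 one-colour Agilent arrays. There were 3 arrays of PRF-treated cells and 3 of untreated control cells, all of C8-D1A (C8D1A in the labels), a cloned mouse astrocyte line and therefore a single clone grown without other brain cells. PRF is an electrical stimulation given in short high-frequency bursts, and the study asked what it changes in astrocyte gene expression in connection with its use against neuropathic pain. Cells of both groups were cultured for 6 days with 10% serum and then kept serum-free for 24 h before use, and the labels describe 3 independent experiments. The sources used here give neither the PRF settings nor the time of RNA collection after PRF.

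Cells sense viral RNA with cytosolic receptors such as MDA5 and RIG-I, which pass the signal through MAVS and the kinase TBK1 to the transcription factors IRF3 and IRF7, and these switch on type I interferon. Secreted interferon then acts through its receptor on JAK kinases and on the ISGF3 complex, which includes STAT2 and IRF9 and binds the interferon-stimulated response element (ISRE) of a large number of target genes. Interferon gamma acts mainly through GAS elements instead. Among the targets are the sensors themselves, effectors that block viral replication, and the immunoproteasome and peptide transporter that load class I molecules. Astrocytes respond to interferon and can present antigen on class I.

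Promoter windows of 4 genes are shown because they carry the motifs named above and because the genes differ in the arrays: Irf8 and Psmb8 passed the test below, and Isg15 and Ifit1 did not. Each window holds 300 bases, 250 before to 50 after the transcription start, 5′ to 3′ on the strand of the gene, from RefSeq on GRCm38.p6. Capitals mark matches to an ISRE-type motif, GAAANNGAAA on either strand (TTTCNNTTTC), or to a GAS-type motif, TTCNNNGAA, which reads the same on both strands. Irf8 lies at chr8:120736108-120736407 on the plus strand and Psmb8 at chr17:34197945-34198244 on the plus strand. Isg15 lies at chr4:156200769-156201068 on the minus strand and Ifit1 at chr19:34640639-34640938 on the plus strand.
Irf8: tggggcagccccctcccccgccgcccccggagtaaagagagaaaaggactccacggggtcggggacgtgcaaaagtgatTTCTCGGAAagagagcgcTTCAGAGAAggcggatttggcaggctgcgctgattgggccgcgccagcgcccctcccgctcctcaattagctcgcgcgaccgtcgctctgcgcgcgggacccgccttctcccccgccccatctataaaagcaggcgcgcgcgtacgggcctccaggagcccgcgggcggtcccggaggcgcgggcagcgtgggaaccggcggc
Psmb8: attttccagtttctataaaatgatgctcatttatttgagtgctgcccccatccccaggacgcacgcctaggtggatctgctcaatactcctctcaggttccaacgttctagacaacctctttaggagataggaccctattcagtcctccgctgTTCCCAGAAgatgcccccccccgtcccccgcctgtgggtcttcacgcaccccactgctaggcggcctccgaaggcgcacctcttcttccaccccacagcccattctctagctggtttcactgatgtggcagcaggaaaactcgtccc
Isg15: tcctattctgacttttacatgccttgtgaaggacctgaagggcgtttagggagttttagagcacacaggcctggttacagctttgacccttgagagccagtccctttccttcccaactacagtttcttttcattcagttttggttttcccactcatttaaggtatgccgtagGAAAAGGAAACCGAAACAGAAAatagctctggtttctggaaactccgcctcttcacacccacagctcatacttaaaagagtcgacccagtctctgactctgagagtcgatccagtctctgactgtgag
Ifit1: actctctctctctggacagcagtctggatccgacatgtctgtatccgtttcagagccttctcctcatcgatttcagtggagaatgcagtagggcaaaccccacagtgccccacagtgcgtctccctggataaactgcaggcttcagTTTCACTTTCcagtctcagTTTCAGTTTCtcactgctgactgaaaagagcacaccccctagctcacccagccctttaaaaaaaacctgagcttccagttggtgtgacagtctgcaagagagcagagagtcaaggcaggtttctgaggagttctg

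The Irf8 window held 2 GAS-type matches, TTCTCGGAA and TTCAGAGAA, which begin at positions -171 and -153 from the start. The Psmb8 window held 1, TTCCCAGAA, at -97. The Isg15 window held 3 overlapping ISRE-type matches, beginning at -78, -72 and -66, and the Ifit1 window held 2, TTTCACTTTC at -104 and TTTCAGTTTC at -85. A window was found for 29 of the 37 genes, and 12 of them (41.4%) held an ISRE-type match, against 3.99% of the 27025 genes with a window and 3.44% of all 32851 windows. A GAS-type match was found in 7 (24.1%), against 9.55% of the genes and 8.3% of the windows. By role, ISRE-type matches stood before 7 of 13 antiviral effectors, 2 of 4 RNA sensors, 2 of 8 signal factors and 1 of 4 antigen-processing genes. A gene with several windows counted if any of them matched. Another window of Irf8, at chr8:120738389-120738688, held 0 matches, and the one with matches is shown. The 4 windows shown do not stand for the set. Oas1a, Bst2, Irf1, Ifi35 and Ifit2 also had a GAS-type match and did not pass the test below. Stat2, which fell, had an ISRE-type match. A match is a description of the sequence and not of a bound site.

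Between 62.1% and 63.9% of 56605 probes were well above background on the PRF arrays, against 59.5% to 61.2% on the control arrays. The 75th percentile of the signal lay between 544 and 634 on PRF arrays, against 597 to 675 on control arrays. Correlations over tested probes were 0.994 to 0.997 within groups and 0.959 to 0.977 between them. Levels below are log2 signals minus the 75th percentile of the same array, so a level of 0 is a probe at that percentile, and levels of different genes are not compared because probes bind with different strength. A gene was tested, by the brightest of its tested probes, if PRF or control cells had that probe well above background on every array. A gene rose or fell if its limma p, Benjamini-Hochberg adjusted over 15069 tested genes, was below 0.05. The p-values rest on the spread between 3 independent experiments, and 3 arrays per group limit the precision of each value.

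Of the 33 tested genes of the set, 5 rose and 2 fell in PRF cells. The risers were Irf8, a transcription factor of myeloid cells, Dhx58, the RNA sensor LGP2, Psmb8, an immunoproteasome subunit, Tap2, a subunit of the peptide transporter, and Parp14, an ADP-ribosyltransferase whose probes disagree. The genes that fell were Irf3 and Stat2, which carry the signal from the sensors and from the interferon receptor. Irf8 and Psmb8 met the filter on dim probes only through the PRF group. The 7 calls are 21.2% of the 33 genes, against 29.4% of all tested genes. The risers make up 15.2%, against 16.2% of all tested genes, and the fallers 6.06%, against 13.2%. The shares called were thus not above those of the whole array. The groups did not overlap in 15 of the 33 genes (45.5%), against 51.1% of all tested genes. Counted over probes, 10 of 43 tested probes of the set were called (23.3%), against 31.1% of all tested probes. Most fitted changes were nevertheless upward: 25 of 33 genes (75.8%) had a positive change, against 48.9% of all tested genes, with a median of 0.35 log2 units, against -0.01 for all tested genes. An unadjusted p below 0.05 was reached by 15 of the 33, and by 6233 of all 15069 tested genes.

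**Figure D1:**
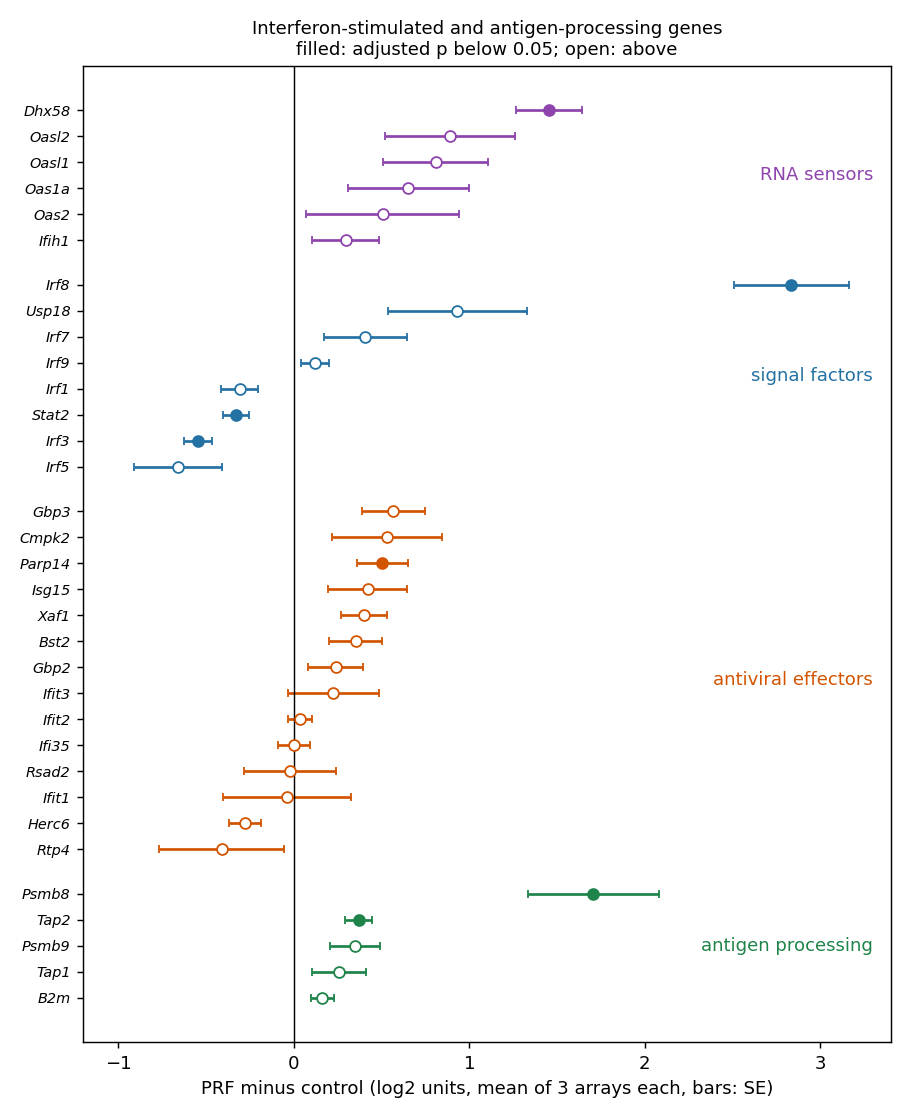
Change of each tested gene (PRF minus control, log2 units, mean of 3 arrays each, bars: SE), grouped by role. Filled points passed an adjusted p of 0.05 and open points did not: RNA sensors and antigen-processing genes all lie right of 0, whereas the signal factors run from -0.66 for Irf5 to 2.83 for Irf8, whose control arrays were not above background.

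The count of genes that rose depended on single arrays, most of all on control array 1. Without control array 1, 12 genes were higher in PRF cells (36.4%, against 13.8% of all tested genes) and 1 was lower (3.03%, against 8.63%). Without control array 3, 2 genes were higher (6.06%, against 13%) and 2 lower (6.06%, against 6.28%). Without control array 2 the counts were 3 higher and 1 lower, where 12.6% and 6.59% of all tested genes were called. Leaving out a PRF array gave 4 higher and 2 lower without PRF array 1 (13% and 6.99% of all tested genes), 2 and 2 without PRF array 2 (11.8% and 5.99%) and 6 and 3 without PRF array 3 (15.6% and 12.9%). The median change of the 33 genes stayed positive throughout, between 0.20 without control array 3 and 0.46 without control array 1. Dhx58, Irf8 and Irf3 were called in each of these 6 fits.

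All arrays lay on 1 slide, and the row of the array on the slide is the only batch the files give. Row 1 held PRF array 2 with control arrays 1 and 3, and row 2 held PRF arrays 1 and 3 with control array 2. In the 7 called genes the groups did not overlap, so the same direction within both rows follows from that and is no further check. Within a row, 3 arrays leave little power. Dhx58 gave 1.24 within row 1 and 1.72 within row 2, Psmb8 1.64 and 2.05, and Tap2 0.40 and 0.32. Parp14 gave 0.61 and 0.39, Irf3 -0.55 and -0.54, and Stat2 -0.26 and -0.35. The fitted 3.09 and 2.33 of Irf8 are no measured sizes, since its control arrays were dark. Of these 7 genes only Irf8 passed within row 1 (limma adjusted p = 0.0442) and 0 within row 2. With row as a block the calls of Stat2 (adjusted p = 0.0529) and Parp14 (0.0985) were lost and the other 5 held, with adjusted p-values up to 0.0399. The median change of the 33 genes was 0.35 within row 1 and 0.32 within row 2.

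**Figure D2:**
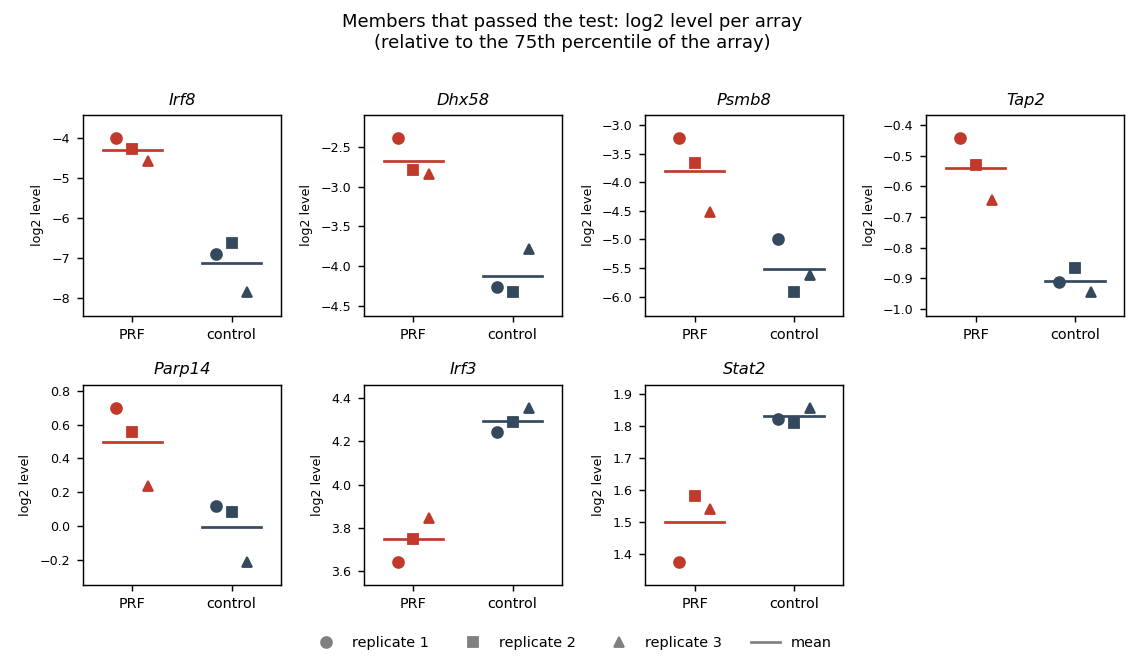
Log2 level per array, relative to the 75th percentile of that array, for the 7 genes that passed the test (PRF left, control right, symbols: replicates, bars: means). The groups do not overlap in any of them. Irf8 was not above background on a control array, and the further probe of Parp14, not plotted, moved the other way.

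Among the RNA sensors, 1 of 6 tested genes rose (16.7%, against 16.2% of all tested genes) and 0 fell (against 13.2%). All 6 changes were positive, against 48.9% of all tested genes, with a median of 0.73. Dhx58 encodes LGP2, which binds double-stranded RNA and adjusts signalling by RIG-I and MDA5. It had levels of -2.39, -2.79 and -2.84 on PRF arrays, against -4.27, -4.33 and -3.78 on control arrays. Every PRF array lay above every control array, and the gap was wider than the spread within either group. Dhx58 rose by 1.45 on the log2 scale (SE 0.19, 2.74-fold, limma adjusted p = 0.00244). The signal behind this is low, and with normexp background correction the rise was 0.80 (adjusted p = 4.31e-05). The count of 1 sensor that rose was the same under the 4 other scalings, where 10.9% to 14.7% of all tested genes rose. With normexp or without control array 1, 3 sensors rose, where 18.6% and 13.8% of all tested genes did.

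The OAS family makes short oligoadenylates in response to double-stranded RNA. Oas1a had levels of -1.71, -1.86 and -2.39 on PRF arrays, against -1.89, -2.98 and -3.05 on control arrays. Control array 1 lay among the PRF arrays and the other control arrays lay below them all. The change of 0.65 (SE 0.35) did not pass (adjusted p = 0.208), whereas without control array 1 it was 1.03 (adjusted p = 0.0246). Oas2 showed the same layout, with -3.28, -3.98 and -4.04 on PRF arrays, against -3.33, -4.58 and -4.92 on control arrays, and an adjusted p of 0.423. The further probe of Oas2 was dark on every array. Oas1a has near-identical copies in the mouse, so its probe may also bind their RNA.

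Oasl1, which in mouse restrains translation of Irf7, had levels of -1.81, -2.57 and -2.62 on PRF arrays, against -2.72, -3.09 and -3.61 on control arrays. The groups did not overlap, but the change of 0.81 (SE 0.30) did not pass (adjusted p = 0.0894). Its further probe gave 1.23 and did not pass over all tested probes either (adjusted p = 0.065). Oasl2, an OAS-like protein, had levels of -0.98, -1.67 and -1.45 on PRF arrays, against -1.43, -2.60 and -2.74 on control arrays. Only control array 1 reached the PRF range. Its change of 0.89 (SE 0.37) had an adjusted p of 0.122, and 1.30 without control array 1 (adjusted p = 0.0128). Ifih1, which encodes MDA5, had -2.15, -2.12 and -2.17 on PRF arrays, against -2.18, -2.24 and -2.90 on control arrays. The PRF arrays lay narrowly above control arrays 1 and 2 and well above control array 3 (change 0.29, SE 0.19, adjusted p = 0.294).

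The signal factors were mixed, with 4 positive and 4 negative changes. Of 8 tested genes, 1 rose (12.5%, against 16.2% of all tested genes), 2 fell (25%, against 13.2%) and 5 did not pass. Irf3 is the latent factor that sensor signalling activates by phosphorylation. It had levels of 3.64, 3.75 and 3.85 on PRF arrays, against 4.24, 4.29 and 4.35 on control arrays. All PRF arrays lay below all control arrays, and the values within a group were close together. Irf3 fell by 0.55 (SE 0.08, adjusted p = 0.00367), and its further probe fell as well, by 0.42 (adjusted p = 0.026 over all tested probes). The call held with each array left out in turn, with adjusted p-values up to 0.0196.

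Stat2, the subunit of ISGF3 that carries its transactivation domain, had levels of 1.38, 1.58 and 1.54 on PRF arrays, against 1.82, 1.81 and 1.86 on control arrays. The PRF arrays all lay lower. Stat2 fell by 0.33 (SE 0.08, adjusted p = 0.0213). The call was lost without any one control array (adjusted p = 0.06, 0.0625 and 0.0684 without arrays 1, 2 and 3) and with array row as a block (0.0529). The dimmer further probe gave -0.55 and did not pass (adjusted p = 0.116). Irf9, the DNA-binding partner of Stat2, had 2.03, 2.13 and 2.17 on PRF arrays, against 2.10, 1.98 and 1.90 on control arrays. The groups overlapped, and the change of 0.12 did not pass (adjusted p = 0.308).

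Irf8 drives the development of myeloid cells and is found in microglia. Its levels were -4.02, -4.29 and -4.59 on PRF arrays, against -6.90, -6.64 and -7.86 on control arrays. The probe was bright, that is well above background, on all 3 PRF arrays and on 0 of 3 control arrays, so it entered the test only through the PRF group and its control level is no more than a bound. Irf8 was at least 2.78-fold higher in PRF cells (adjusted p = 0.00166, and 0.00622 when no filter on dim probes was applied), a bound taken against the lowest signal of probes well above background. The fitted change of 2.83 shrank to 0.59 with normexp (adjusted p = 6.10e-05).

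Irf1, an interferon gamma-induced activator, had 2.79, 2.88 and 2.91 on PRF arrays, against 3.36, 3.18 and 2.98 on control arrays. The groups did not overlap, though control array 3 came close to the PRF arrays. The change of -0.31 (SE 0.11) did not pass (adjusted p = 0.0759). It did without control array 3 (-0.41, adjusted p = 0.0367) and with scaling to the median of tested probes (0.0451) or to the spike-in probes (0.00932). The dimmer further probe of Irf1 gave -0.16, with overlap (adjusted p = 0.553 over all tested probes), and the mean of its probes -0.23 (adjusted p = 0.253). Irf5, another factor of myeloid cells, was dim, with -5.06, -5.83 and -4.84 on PRF arrays, against -4.70, -4.59 and -4.45 on control arrays. It was well above background on 2 of 3 PRF arrays, all lower than the control arrays, and its change of -0.66 did not pass (adjusted p = 0.0975). It passed without PRF array 3 (0.0443), with quantiles (0.0346), with the spike-in probes (0.0235) and within row 1 (0.0364), whereas with normexp hardly any change was left (-0.05, adjusted p = 0.678).

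Irf7, which amplifies the interferon response, and Usp18, which removes ISG15 and blocks the interferon receptor, are themselves interferon targets. Irf7 had 1.35, 1.27 and 1.08 on PRF arrays, against 1.37, 0.66 and 0.45 on control arrays. Usp18 had -1.26, -1.70 and -2.08 on PRF arrays, against -1.77, -2.86 and -3.21 on control arrays. Control array 1 lay above the PRF arrays for Irf7 and among them for Usp18, and the other control arrays lay below them. Neither passed (Irf7 0.41, adjusted p = 0.247; Usp18 0.93, adjusted p = 0.128), and both did without control array 1 (0.68, adjusted p = 0.0166, and 1.35, adjusted p = 0.0195). Trim30a, which restrains inflammatory signalling in the mouse, stayed near background on all 6 arrays and was not tested. The number of signal factors that fell was 2 here, 3 with scaling to the median or by quantiles, and 4 with the spike-in probes. Of all tested genes 13.2% fell here, 18.4% with the median or quantiles and 36.5% with the spike-in probes.

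Of the 14 tested antiviral effectors, 1 rose (7.14%, against 16.2% of all tested genes), 0 fell (against 13.2%) and 13 did not pass. The median change was 0.23. Parp14 was the one called: 0.70, 0.56 and 0.24 on PRF arrays, against 0.12, 0.08 and -0.21 on control arrays. The PRF arrays lay above the control arrays for this probe (0.50, SE 0.15, adjusted p = 0.0456). The further probe of the same transcript had -4.22, -4.05 and -3.93 on PRF arrays, against -3.44, -3.41 and -3.58 on control arrays, and fell by 0.59 (adjusted p = 0.006 over all tested probes). The probes moved in opposite directions, their mean gave -0.04 (adjusted p = 0.716), and the direction of Parp14 is unsettled. The call was also lost without each array but PRF array 3, with adjusted p-values between 0.0687 and 0.131.

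Isg15 encodes a ubiquitin-like modifier and is among the most strongly interferon-induced genes. Its levels were 2.99, 2.85 and 2.63 on PRF arrays, against 2.89, 2.27 and 2.04 on control arrays. Control array 1 lay inside the PRF range, and the change of 0.42 (SE 0.23) did not pass (adjusted p = 0.213), but did without that array (0.67, adjusted p = 0.0257). Herc6, the ligase that attaches ISG15 in the mouse, had -1.37, -1.59 and -1.45 on PRF arrays, against -1.31, -1.16 and -1.10 on control arrays. All PRF arrays lay lower, and the change of -0.28 missed the threshold (adjusted p = 0.0625), which it passed with scaling to the median (0.0327), by quantiles (0.0265), to the spike-in probes (0.0108) or on the deposited scale (0.0443).

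The IFIT proteins bind foreign RNA ends and are classical markers of an interferon response. Ifit1 had -1.97, -2.21 and -2.41 on PRF arrays, against -1.43, -2.11 and -2.94 on control arrays. The PRF arrays sat inside the range of the control arrays (change -0.04, adjusted p = 0.949). Ifit2 had 1.16, 1.14 and 1.25 on PRF arrays, against 1.09, 1.23 and 1.13 on control arrays and varied little across the 6 arrays (0.03, adjusted p = 0.745). Ifit3 had 1.68, 1.39 and 1.35 on PRF arrays, against 1.77, 1.25 and 0.73 on control arrays, again with control array 1 highest of all (0.23, adjusted p = 0.552). Ifit3 has a near-identical copy, so its probe may bind RNA of both.

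**Figure D3:**
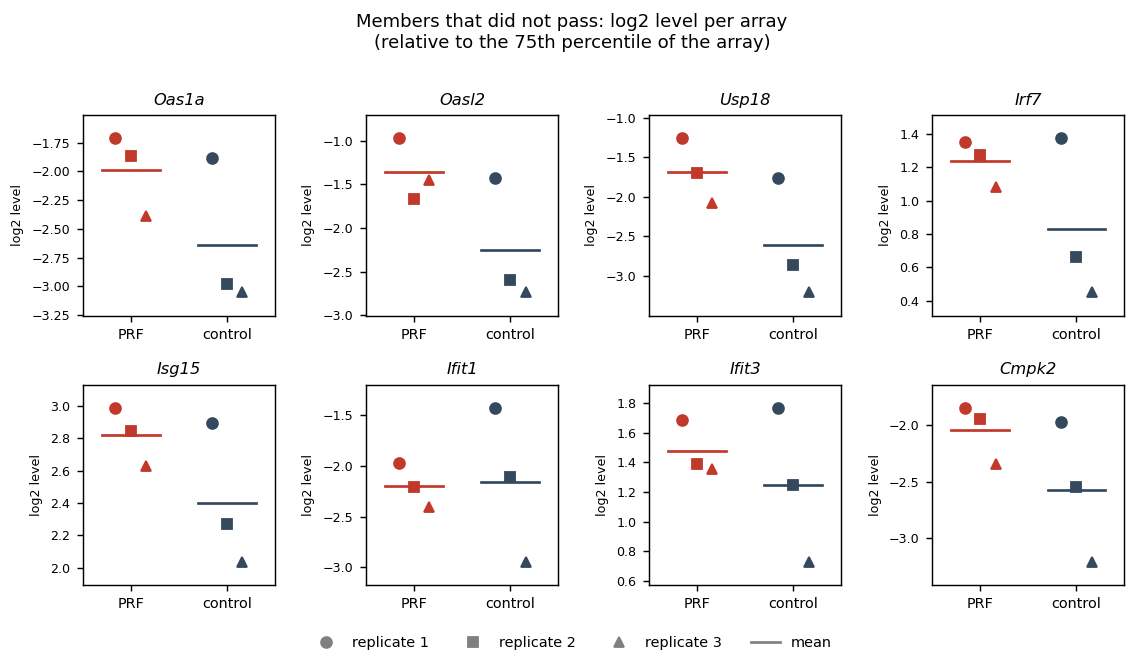
Log2 level per array, relative to the 75th percentile of that array, for 8 interferon-stimulated genes that did not pass the test (PRF left, control right, symbols: replicates, bars: means). Control array 1 (circle) is the highest control array in each panel, above every PRF array for Irf7, Ifit1 and Ifit3.

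Gbp3, an interferon-induced GTPase, had 2.69, 2.90 and 2.65 on PRF arrays, against 2.50, 2.24 and 1.81 on control arrays. Xaf1, a pro-apoptotic interferon target, had 0.48, 0.34 and 0.21 on PRF arrays, against 0.19, -0.14 and -0.21 on control arrays. In both, every PRF array exceeded every control array, and both narrowly missed the threshold (Gbp3 0.57, adjusted p = 0.0595; Xaf1 0.40, adjusted p = 0.0621), which they passed without control array 1 (0.0298 and 0.0243). Bst2, which tethers budding virions, changed by 0.35 (adjusted p = 0.137), and by 0.52 without control array 1 (adjusted p = 0.0202). Cmpk2, a mitochondrial nucleotide kinase, had -1.84, -1.95 and -2.35 on PRF arrays, against -1.97, -2.55 and -3.21 on control arrays, with overlap (0.53, adjusted p = 0.251).

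The other effectors did not pass either. Rsad2, which encodes the antiviral enzyme viperin and lies beside Cmpk2, changed by -0.02 (adjusted p = 0.958), and Gbp2 by 0.24 (adjusted p = 0.299). Rtp4, a chaperone of receptors that is induced by interferon, had a level of -0.08 on control array 1, above the -1.06 to -1.50 of the PRF arrays and the -1.18 and -1.48 of the other control arrays (change -0.41, adjusted p = 0.429). Ifi35 had a change of 0.00 (adjusted p = 0.997) by its brighter probe, whereas its further probe gave 0.22 and passed over all tested probes (adjusted p = 0.045). Ifi44 was well above background on 1 array of each group and was not tested. Under the other scalings 0 or 1 effectors rose and 1 fell, where 10.9% to 14.7% of all tested genes rose and 18.4% to 36.5% fell. Without control array 1 there were 4 that rose, where 13.8% of all tested genes did.

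All 5 antigen-processing genes had positive changes, against 48.9% of all tested genes, and 2 of them rose (40%, against 16.2%). Psmb8 encodes an inducible catalytic subunit that replaces its constitutive counterpart in the immunoproteasome. It had levels of -3.24, -3.67 and -4.53 on PRF arrays, against -5.00, -5.93 and -5.63 on control arrays. Every PRF array lay above every control array, but of the 3 control arrays only 1 had the probe well above background, so it entered the test through the PRF group. The fitted rise of Psmb8 was 1.71 (SE 0.37, adjusted p = 0.018, and 0.0431 with no filter on dim probes), and its size is uncertain because the control level rests on 1 bright array. With normexp the rise was 0.57 (adjusted p = 0.00132), and the call was lost without control array 2 (0.061), control array 3 (0.0626) or PRF array 2 (0.065).

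Tap2, which with Tap1 forms the pump that moves peptides into the endoplasmic reticulum, had -0.44, -0.53 and -0.65 on PRF arrays, against -0.91, -0.87 and -0.95 on control arrays. The groups were well apart, although the change is small: Tap2 rose by 0.37 (SE 0.08, 1.29-fold, adjusted p = 0.014). The call was lost without control array 3 (0.0504) or PRF array 2 (0.054), with no scaling of the deposited signals (0.228), and with spike-in scaling (0.168), where the change was 0.17. A further probe of Tap2 was dark on all arrays. Tap1 did not pass (0.26, adjusted p = 0.256), and neither did its further probe (0.57, adjusted p = 0.153).

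Psmb9, the neighbouring immunoproteasome subunit, changed by 0.35 (adjusted p = 0.114), and passed without PRF array 3 (0.48, adjusted p = 0.0375). B2m, the invariant light chain of class I molecules, had 6.87, 6.92 and 6.86 on PRF arrays, against 6.80, 6.68 and 6.68 on control arrays. The PRF arrays lay above the control arrays by a small margin, and the change of 0.16 (SE 0.07) did not pass (adjusted p = 0.116) and was -0.03 with spike-in scaling. The number of antigen-processing genes that rose was 2 with scaling to the median or by quantiles (14.7% and 13.8% of all tested genes rose). It was 1 with the spike-in probes or on the deposited scale (11.9% and 10.9%), and 0 without control array 3 or PRF array 2 (13% and 11.8%).

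Within each group the genes of the set tended to order the arrays alike. Control array 1 was the highest control array in 25 of the 33 tested genes (75.8%), where it was the highest in 26.5% of all tested genes with a value on all 6 arrays, and control array 3 was the lowest in 23 (69.7%, against 28.3%). Among PRF arrays, array 1 was the highest in 20 (60.6%, against 30.0%) and array 3 the lowest in 25 (75.8%, against 33.5%). Control array 1 was the highest control array in 12 of 14 effectors, 5 of 6 sensors, 4 of 5 antigen-processing genes and 4 of 8 signal factors, and PRF array 3 the lowest PRF array in 12, 5, 5 and 3 of them. The median spread of a gene within its group was wider in the set, with an SD of 0.18 on PRF arrays and 0.31 on control arrays, against 0.098 and 0.089 over all tested genes. The median gene of the set lay 0.28, 0.17 and 0.04 above its own mean over the 6 arrays on PRF arrays 1, 2 and 3, against 0.16, -0.14 and -0.46 on control arrays 1, 2 and 3. Control array 1 was thus level with PRF array 2 for the median gene of the set. These genes share their arrays and respond to shared regulators, so they are not independent observations, and this layout, seen in the values first, is given as a description. Control array 1 also had the highest 75th percentile of all arrays (675) and the largest share of bright probes among the controls (61.2%), PRF array 1 the same among the PRF arrays (634 and 63.9%), and PRF array 3 the smallest share among PRF arrays (62.1%). The same measures did not follow the layout elsewhere: PRF array 2, not 3, had the lowest 75th percentile of the PRF arrays (544, against 553), and control array 2, not 3, the smallest share of bright probes among the controls (59.5%, against 59.6%). Whether these differences play a part in the layout was not tested.

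**Figure D4:**
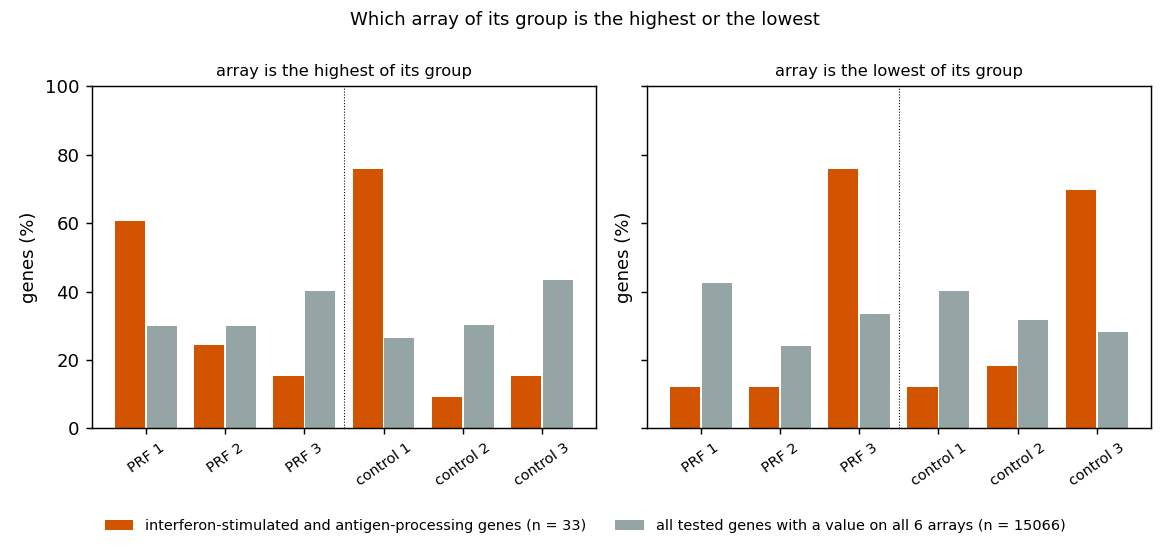
Percent of genes in which each array is the highest (left) or the lowest (right) of its group of 3, for 33 genes of the set and for all tested genes with a value on all 6 arrays. In the set, PRF array 1 and control array 1 are the highest in 60.6% and 75.8%, and PRF array 3 and control array 3 the lowest in 75.8% and 69.7%.

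Further genes of the same pathway, 105 tested in all, gave 19 that rose (18.1%) and 13 that fell (12.4%), shares near the 16.2% and 13.2% of all tested genes. RNA and DNA sensing, outside the set, had 3 risers and 2 fallers among 14 tested genes (21.4% and 14.3%, median 0.11). Cgas, the cytosolic DNA sensor, rose by 0.41 (adjusted p = 0.00705), and Ifi205, a gene of the interferon-inducible p200 family, by 0.49 (adjusted p = 0.0154). Mavs, the adaptor between RNA sensors and IRF3, had 2.12, 2.07 and 2.21 on PRF arrays, against 2.56, 2.60 and 2.65 on control arrays, and fell by 0.47 (SE 0.07, adjusted p = 0.00378). Znfx1, an RNA-binding helicase, fell by 0.37 (adjusted p = 0.0434). Ddx58, which encodes RIG-I, and Eif2ak2, which encodes the kinase PKR, did not pass (0.10, adjusted p = 0.566, and -0.05, adjusted p = 0.769). The calls of Cgas and Mavs held with each array left out in turn, but that of Cgas was lost on the deposited scale (0.27, adjusted p = 0.133) and with spike-in scaling (0.22, adjusted p = 0.0682). Ifi205 was lost without control array 2 (0.0558) or PRF array 1 (0.0516), and Znfx1 was called only without PRF array 3 (0.0321) and reached 0.131 without control array 2.

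Interferon signalling had 2 risers and 1 faller among 19 tested genes (10.5% and 5.26%, median -0.06). Socs1, a feedback inhibitor of JAK kinases, had -1.16, -1.12 and -0.73 on PRF arrays, against -0.35, -0.34 and -0.30 on control arrays, and fell by 0.67 (SE 0.12, adjusted p = 0.00915). Socs3, which inhibits signalling by interleukin 6 type receptors, rose by 0.43 (adjusted p = 0.0217), and the corepressor Irf2bp2 by 0.22 (adjusted p = 0.0482). Socs1 kept its call without each array in turn, Socs3 lost it without control array 3 (0.0544), PRF array 1 (0.0689) or PRF array 2 (0.0766), and Irf2bp2 was called in 0 of the 6 fits (0.0615 to 0.126). With spike-in scaling 0 genes of this list rose and 10 fell, where 11.9% of all tested genes rose and 36.5% fell.

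The longest list, further interferon-induced genes, had 9 risers and 5 fallers among 44 tested genes (20.5% and 11.4%, median 0.13). Isg20, an exonuclease that degrades viral RNA, had 0.25, 0.53 and -0.07 on PRF arrays, against -1.25, -1.29 and -1.55 on control arrays, and rose by 1.60 (SE 0.16, adjusted p = 0.00108). The chemokine Cxcl10 had 2.92, 2.89 and 2.84 on PRF arrays, against 2.10, 1.71 and 1.29 on control arrays, and rose by 1.18 (adjusted p = 0.00664). In both the groups were far apart. Gbp5, a guanylate-binding protein, rose by 0.96 (adjusted p = 0.0125) and Phf11d by 1.02 (adjusted p = 0.0401). Trim21, a cytosolic antibody receptor, fell by 0.69 (SE 0.12, adjusted p = 0.00846), and Tor3a, Ms4a4c and Helz2 fell by 0.33, 0.32 and 0.30 (adjusted p = 0.0255, 0.0352 and 0.0229). Isg20, Cxcl10, Gbp5 and Trim21 were called with each array left out in turn. Phf11d was called only without control array 1 (0.013), Ms4a4c only without PRF array 3 (0.0311) and Helz2 only without PRF array 2 (0.0317), while Tor3a lost its call without any one control array (0.0763, 0.0718 and 0.071) and without PRF array 2 (0.0666). Scaled to the spike-in probes, 8 rose and 13 fell, against 11.9% and 36.5% of all tested genes.

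Class I presentation outside the set had 2 risers and 4 fallers among 22 tested genes (9.09% and 18.2%, median 0.07). H2-T23, a nonclassical class I chain, rose by 0.33 (adjusted p = 0.0262) and H2-Q7 by 0.24 (adjusted p = 0.0458). The classical chains H2-K1 and H2-D1 changed by 0.24 and 0.23 and did not pass (adjusted p = 0.0587 and 0.0788). Class I genes are near-identical copies, so their probes may bind each other's RNA and the separate values are uncertain. H2-M3 failed to rise well above background on the PRF arrays and was at least 1.36-fold lower in PRF cells (adjusted p = 0.0297), while with normexp its fitted change was 0.06. Rfx5 and Rfxank, subunits of the factor that binds class I and class II promoters, fell by 0.50 and 0.44 (adjusted p = 0.0373 and 0.0195), and the proteasome activator Psme3 by 0.41 (adjusted p = 0.0315). Tapbp, Psmb10 and Nlrc5 did not pass (0.09, 0.06 and -0.05, adjusted p = 0.409, 0.521 and 0.631). H2-Q7 was called in 0 of the 6 fits that leave out 1 array, Rfx5 in 1, and H2-T23, H2-M3, Rfxank and Psme3 in 2 each, with adjusted p-values up to 0.143. With spike-in scaling or on the deposited scale 0 of the 22 genes rose, where 11.9% and 10.9% of all tested genes did.

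Of 11 class II genes, 6 were bright enough to test, with 3 risers and 1 faller (50% and 16.7%), and 2 of the risers met the filter only through the PRF group. Ctss, the protease that trims the class II invariant chain, had -2.48, -2.80 and -3.00 on PRF arrays, against -7.21, -7.52 and -6.79 on control arrays. Ciita, the class II transactivator, had -3.72, -4.33 and -4.86 on PRF arrays, against -6.29, -7.99 and -7.88 on control arrays. Neither was well above background on a control array, so both entered the test through the PRF group, Ctss as at least 8.07-fold higher (adjusted p = 7.87e-05) and Ciita as at least 2.77-fold higher (adjusted p = 0.0065). With no filter on dim probes the adjusted p-values were 0.000575 for Ctss and 0.0188 for Ciita. H2-DMb1, which helps load peptide, rose by 1.17 (SE 0.16, adjusted p = 0.00288). These 3 calls held with each array left out in turn. Ifi30, a lysosomal thiol reductase, fell by 0.38 (adjusted p = 0.0324), and this call was lost whichever array was left out (0.0504 to 0.0939). Cd74 and H2-DMa, also tested, did not pass (0.28, adjusted p = 0.218, and 0.25, adjusted p = 0.104). The class II chains themselves were not bright enough to test. H2-Aa and H2-Oa were dark on all 6 arrays. H2-Eb1 was bright on 2 PRF arrays and H2-Ab1 and H2-Ob on 1 each, and none of them on a control array. Every PRF array lay above every control array for H2-Eb1 and H2-Ab1, whereas the groups overlapped for H2-Ob. These levels are near background, and the groups did not overlap in 51.1% of all tested genes.

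**Figure D5:**
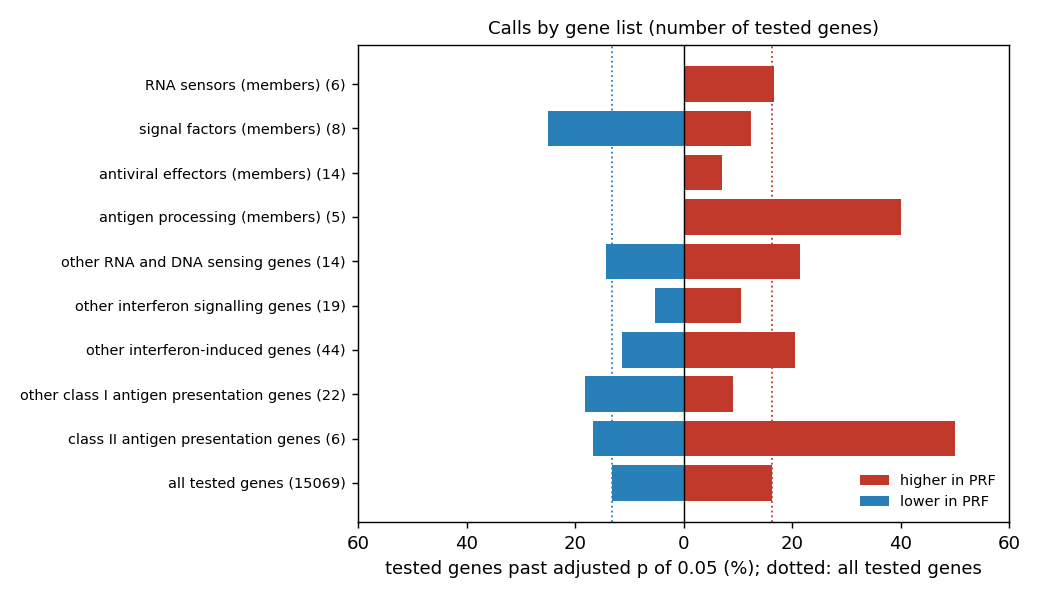
Percent of tested genes that rose (right) or fell (left) in PRF cells, for the 4 roles of the set, the 5 further lists of the pathway and all tested genes, with the number tested in brackets. The dotted lines mark all tested genes, 16.2% higher and 13.2% lower.

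Some markers of each cell type listed were called, where 16.2% of all tested genes rose and 13.2% fell. Of 15 macrophage and microglia markers, 7 were dark on all arrays, among them the defining genes Ptprc and Aif1, and 2 of 7 tested rose, Itgam and Fcer1g. The other tested markers of this list did not pass. Cd68 (0.36), C1qb (0.23) and Csf1r (0.16) had positive changes, and Tyrobp (-0.16) and Tmem119 (-0.25) negative ones. The summed level of the 15, relative to the 75th percentile, was 19.0 to 23.9 on PRF arrays, against 13.2 to 14.3 on control arrays. Itgam made the largest part of this sum, with log2 levels of 4.10, 4.02 and 3.65 on PRF arrays, against 3.11, 3.05 and 3.03 on control arrays, so the sum follows mainly 1 probe. Of 6 dendritic cell markers 2 of 5 tested rose. They were Flt3 and Itgax, of which Itgax, dark on every control array, entered the test only through the PRF group and was at least 6.88-fold higher (adjusted p = 0.00319). Batf3 (-0.23) and Zbtb46 (-0.17) had negative changes and did not pass. The dendritic sum of 44.2 to 63.6 on PRF arrays, against 29.7 to 47.7 on control arrays, was nearly all the signal of Siglech, which did not pass (0.37, adjusted p = 0.283). These values stand beside the rises of Irf8, Ctss and Ciita, which myeloid cells also express, and their part in them was not tested.

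Of 14 astrocyte markers 12 were bright on all 6 arrays and 2, Slc1a3 and Gja1, were dark. Apoe (1.09, adjusted p = 0.000546) and Glul (0.29, adjusted p = 0.0185) rose, Id4 fell by 0.89 (adjusted p = 0.00992), and Gfap (0.08, adjusted p = 0.562) and Vim (0.16, adjusted p = 0.124) did not pass. The astrocyte sum was 190 to 195 on PRF arrays, against 168 to 180 on control arrays. Among 8 tested oligodendrocyte markers Mbp rose by 0.99 (adjusted p = 0.00877) and Mog fell by 0.40 (adjusted p = 0.0211), with sums of 96.8 to 101.5 on PRF arrays, against 93.6 to 96.0 on control arrays. Among 5 tested neuron markers Snap25 rose by 0.97 (adjusted p = 0.0133), with sums of 25.2 to 29.7 on PRF arrays, against 24.2 to 27.4 on control arrays. Of 4 tested endothelial and fibroblast markers, the collagens Col1a1 and Col3a1 rose by 0.44 and 0.52 (adjusted p = 0.0399 and 0.00884), with sums of 1.71 to 1.91 on PRF arrays, against 1.22 to 1.39 on control arrays. In RNA from a whole culture, a change in the number of cells that express a gene and in its RNA per cell cannot be told apart.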

How the data were processed

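Total RNA of PRF-treated and untreated C8-D1A cells was labelled with Cy3 and hybridised to 6 arrays on 1 slide, 3 per group, grouped by the sample titles. The deposited intensity values are processed signals, background-corrected and not normalized between arrays, which per the file headers come from Agilent Feature Extraction 10.7.3.1. The authors' deposited series table holds the same intensity values. The sources used here do not give how the authors tested them.

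Their log2 was taken, control spots and outlier-flagged spots left out, spots of a probe averaged, and the 75th percentile of each array subtracted. Transcripts were named through RefSeq (22911 genes by 32994 of 56605 probes), and 34838 probes, 15069 genes, were tested. Coordinates are those of the promoter windows (GRCm38.p6), since the array design uses an older build. Group was the only term in limma 3.58.1 (lmFit, eBayes, R 4.3.3), with Benjamini-Hochberg adjustment, and the fit was tested on simulated data. For a fold bound, the dim group's signal on each array was replaced, if lower, by the lowest signal among probes well above background there. Summed marker levels are linear.

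The genes of the set, the further lists, the markers and the naming rule were chosen with earlier results of these data known. All 37 genes are accounted for by name. Of the other lists the 4 largest called changes per direction are named, and Ddx58, Eif2ak2, Tapbp, Psmb10, Nlrc5, H2-K1, H2-D1 and Cxcl10 whatever their values (a few genes the rule covers are not reported), and of the markers Gfap, Vim, Ptprc and Aif1. The other markers and Cd74, H2-DMa, H2-Aa, H2-Oa, H2-Ob, H2-Eb1 and H2-Ab1 were named after their values were seen. Alternatives covered scaling (median of tested probes, quantiles, deposited scale, 245 spike-in spots), normexp (offset 50), filters, outlier spots, probe choice, the series table, array row, the replicate number as a block, single arrays left out and a plain threshold (unadjusted p below 0.05, at least 1.5-fold). For roles and further lists these were added after seeing the data.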

Additional observations from a re-analysis of the deposited data

How the results depend on the processing

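With 3 arrays per group, dim probes such as those of Irf8, Psmb8 and Dhx58 have uncertain sizes of change, and scaling moves the zero point. The median change of all tested genes was -0.01 in the reported setting, -0.15 for unscaled deposited signals and -0.20 with the spike-in probes, and the set kept its distance of 0.36 above it, since these scalings subtract 1 value per array. That distance was 0.31 with quantiles, 0.26 with normexp and 0.20 to 0.47 without single arrays. Rises were 55.0% of all called genes in the reported setting, 44.3% with the median of tested probes, 42.8% with quantiles, 34.6% on the deposited scale and 24.7% with the spike-in probes. The cause of the differences below was not tested, except that fits within a row hold 3 arrays each.

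The count of 5 genes of the set that rose (16.2% of all tested genes rose) became 3 without scaling (10.9%), 3 with the spike-in probes (11.9%), 11 with normexp (18.6%), 1 within array row 1 (7.12%), 0 within row 2 (1.48%) and 9 with the replicate block (14.4%), and 2 to 12 without single arrays. The count of 2 that fell (13.2%) became 4 with the median of tested probes (18.4%), 4 with quantiles (18.4%), 5 with spike-in scaling (36.5%), 1 with row as a block (8.52%), 1 within row 1 (0.869%), 0 within row 2 (0.0133%) and 1 at the plain threshold, and 1 to 3 without single arrays. The 1 within row 1 was Irf5, and neither Irf3 (adjusted p = 0.115) nor Stat2 (0.329) was called there. The 19 further pathway genes that rose (16.2% of all tested genes rose) became 11 on the deposited scale (10.9%) and 30 with normexp (18.6%). They became 5 within row 1 (7.12%), 1 within row 2 (1.48%) and 14 to 24 without single arrays (11.8% to 15.6%). The 13 that fell became 32 with spike-in scaling (36.5% of all tested genes fell), 5 without the filter (5.6%) and 6 with row as a block (8.52%). The fallers became 0 within row 1 (0.869%) and 0 within row 2 (0.0133%), and 4 to 12 without single arrays (5.99% to 12.9%). Same-numbered arrays of the groups correlated in their deviations by 0.15, -0.08 and 0.05, and differently numbered ones by -0.17 to 0.13. With 3 arrays per group these values cannot decide whether the numbers mark shared experiments. Under the replicate block Oasl1 (adjusted p = 0.0161), Oasl2 (0.0326), Usp18 (0.0236) and Xaf1 (0.0274) also rose.

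Some changes turned sign, all of them outside the threshold both ways except those of Parp14 and H2-M3, which were called in the reported setting. Without scaling Irf9 had -0.021, Ifit2 -0.106, Ifi35 -0.140, Ddx58 -0.038, Tapbp -0.049 and Psmb10 -0.083. With the spike-in probes Irf9 had -0.075, Ifit2 -0.160, Ifi35 -0.194, B2m -0.033, Ddx58 -0.092, Tapbp -0.103 and Psmb10 -0.137. With the median of tested probes Ifit2 had -0.019 and Ifi35 -0.053. With normexp Ifit1 had 0.0050, Rsad2 0.0012, Ifit2 -0.011, Ifi35 -0.0054 and H2-M3 0.057. With the mean of all tested probes Parp14 had -0.043 and Nlrc5 0.062, and within row 2 Ifit2 had -0.021, Rsad2 0.011 and Eif2ak2 0.059. Leaving out single arrays gave -0.43 to 0.33 for Ifit1, -0.033 to 0.49 for Ifit3, -0.29 to 0.24 for Rsad2, -0.70 to 0.0050 for Rtp4, -0.055 to 0.076 for Ifi35 and -0.13 to 0.047 for Eif2ak2.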

Other observations

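The remaining interferon-induced genes that rose or fell were outside the naming rule and are named after their values were seen. Ube2l6, the enzyme that conjugates ISG15, had 0.93, 0.74 and 0.74 on PRF arrays, against 0.15, 0.17 and 0.22 on control arrays, and rose by 0.63 (SE 0.08, limma adjusted p = 0.0022). Its PRF arrays lay well above its control arrays, whereas Isg15 itself did not pass. Tent5a rose by 0.73 (adjusted p = 0.0013), Ifitm1, a membrane protein that hinders viral entry, by 0.73 (adjusted p = 0.0023), Gbp6 by 0.72 (adjusted p = 0.0073), and Dtx3l, a ubiquitin ligase, by 0.38 (adjusted p = 0.0082). Sp110 fell by 0.29 (adjusted p = 0.0492), with every PRF array below every control array. Groups without overlap were seen in 51.1% of all tested genes. How these calls depend on single arrays, array row or scaling is not reported here.

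Promoter matches were also set against the calls across the whole array. Of 445 tested genes with an ISRE-type match, 86 rose (19.3%) and 56 fell (12.6%), against 15.6% and 13.3% of the 11930 tested genes with a window. Without the genes of the set, the number that rose stayed at 86, now of 434 (19.8%), and 55 fell (12.7%), with a median change of 0.04. The genes of the set with an ISRE-type match thus added no riser. Of 1018 genes with a GAS-type match 15.9% rose and 15.2% fell. These shares are descriptions, and genes are not independent replicates.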
